A study of Mus musculus with 8 samples.

Results

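The feedback arm of NF-kB signaling was followed through 10 genes in bulk RNA from MC38 tumors, and 10 of 10 were found among the 24421 genes of the raw count table and among the 19823 genes of the normalized table. All 10 also passed the filter on low counts. The genes were listed by name for their role, with earlier results of these data known, and comprise Nfkbia, Nfkbie, Nfkbiz, Bcl3, Tnfaip3, Zfp36, Nfkb1, Nfkb2, Relb and the cytokine gene Tnf. The 4 photoconverted tumors were MC38 tumors grown in female B6 Kaede mice that were 9 weeks old at injection, given 405-nm violet light for 3 min on day 10 and collected 5 h later. The 4 control tumors were MC38 tumors in the same kind of mice that received no light and were collected at the same time. MC38 is a mouse colon adenocarcinoma line, so all tumors derive from 1 line, and Kaede is a protein that turns from green to red under violet light. The comparison asks whether the light itself altered expression in the tumor.

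NF-kB transcription factors are dimers of Rel family subunits that are held inactive in the cytoplasm by IkB inhibitor proteins. Cytokines such as TNF activate a kinase complex that marks IkB proteins for destruction, which frees the dimers to enter the nucleus. Among the genes they then switch on are those of their own inhibitors, so that the response limits itself, and Nfkbia is the textbook example of this loop. A separate branch processes the Nfkb2 product into a subunit that pairs with RelB. In tumors, both cancer cells and infiltrating myeloid cells use these pathways, and in bulk RNA a lower number of cells of a type and less RNA per cell cannot be told apart.

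Total counts were 12576615 to 35844417 per tumor, and the 10 genes had between 52 counts (Tnf in control tumor 2) and 10020 counts (Nfkb2 in photoconverted tumor 1). Rn45s, the ribosomal RNA precursor, took 21.9% of counts in photoconverted tumor 4, 35.7% in control tumor 2 and 23.2% in control tumor 4, against 2.70% to 9.65% in the other 5 tumors. Results that lean on these 3 libraries are therefore also given for the 5 tumors below 10%. Of 8 intestinal epithelial markers, Cdx2 had 0 counts in all tumors, which allows up to 3 counts per library by counting error alone, and none exceeded 1.65 CPM in any tumor. Ptprc, the leukocyte marker CD45, had 50.5 to 153 CPM. CPM are counts scaled by library size with the TMM factors of edgeR, and where no other scale is named, values are in CPM. Values in the authors' normalized table had nearly the same proportions, since 1 normalized count corresponded to between 0.0440 and 0.0445 CPM in every tumor.

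Across the 10 genes the photoconverted tumors had higher fitted means in 7 and lower fitted means in 3, and Zfp36 had the largest difference. No gene passed the test, since the quasi-likelihood test of edgeR gave 0 of the 10 an adjusted p under 0.05, and likewise 0 of the 14468 genes tested (0%), of which 322 had an unadjusted p under 0.05. DESeq2's Wald test called 0 of the 10 as well, against 0.141% of the genes it tested (24 of 17005), and limma called 0 of the 10 and 0 of all genes. An unadjusted p under 0.05 was found for 2 of the 10 in edgeR, Zfp36 and Nfkbiz, against 2.23% of all genes tested. The log2 fold change was above 0 for 7 of the 10, against 46.8% of all genes, and the median over the 10 was 0.22, against -0.014 over all genes. In none of the 10 did the groups separate without overlap, which was the case for 1.33% of all genes. With the replicate number as a block, 0 of the 10 were called and 4 had an unadjusted p under 0.05 (Zfp36, Nfkbiz, Bcl3 and Tnfaip3), against 6.01% of all genes in that edgeR fit. The values of each gene in each tumor are plotted first.

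**Figure D1:**
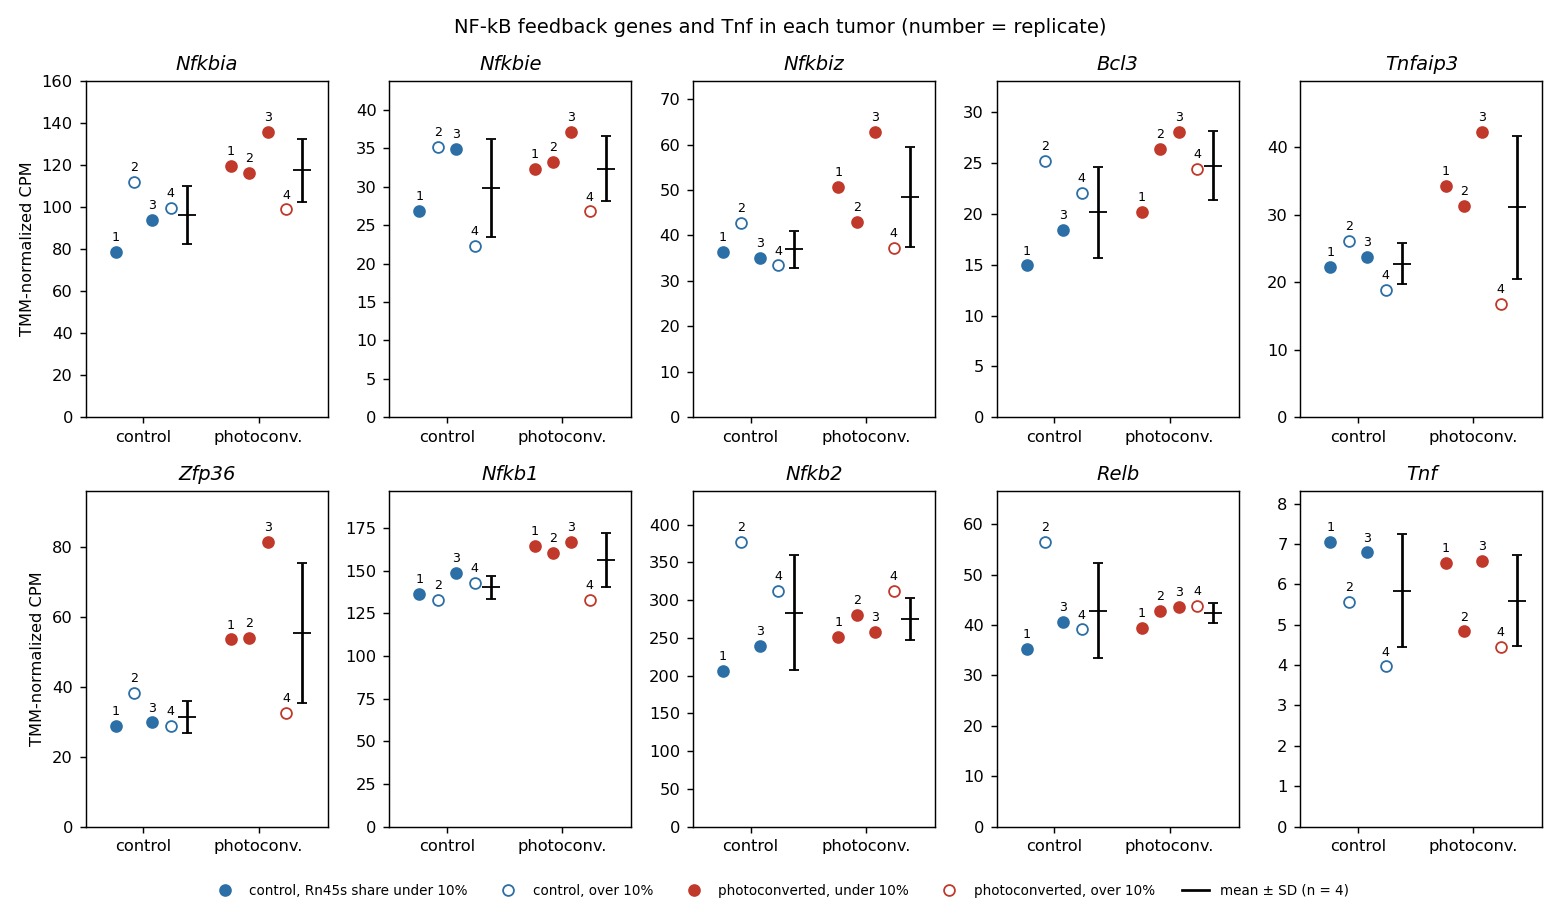
TMM-normalized CPM (vertical axis, from 0) of each gene in 4 control (blue) and 4 photoconverted (red) tumors, with replicate numbers, open circles for tumors with an Rn45s share over 10% and black bars for the mean ± SD. Photoconverted tumor 3 is the highest of all 8 tumors in 7 of the 10 genes, and photoconverted tumor 4 is the lowest of its group in 7 of the 10.

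The inhibitors that hold NF-kB in the cytoplasm are represented by Nfkbia, which encodes IkB-alpha, and Nfkbie, which encodes IkB-epsilon. Nfkbia lies on the minus strand of chr12:55489410-55492647 and Nfkbie on the plus strand of chr17:45555703-45563169 (GENCODE annotation of GRCm38, the assembly also called mm10). The 250 bases before the RefSeq start of each gene (GRCm38.p6) are shown with those of Tnf, to set the inhibitors beside the cytokine that activates the pathway. Capitals mark matches to the 10-base kB consensus GGGRNNYYCC, searched on both strands, where R is A or G, Y is C or T and N is any base. The windows are chr12:55492648-55492897 (minus strand), chr17:45555450-45555699 (plus strand) and chr17:35202008-35202257 (minus strand).
Nfkbia: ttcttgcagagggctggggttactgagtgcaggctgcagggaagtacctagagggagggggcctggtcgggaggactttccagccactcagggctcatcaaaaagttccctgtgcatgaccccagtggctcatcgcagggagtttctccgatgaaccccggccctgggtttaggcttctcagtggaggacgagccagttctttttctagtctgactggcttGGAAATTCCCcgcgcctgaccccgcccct
Nfkbie: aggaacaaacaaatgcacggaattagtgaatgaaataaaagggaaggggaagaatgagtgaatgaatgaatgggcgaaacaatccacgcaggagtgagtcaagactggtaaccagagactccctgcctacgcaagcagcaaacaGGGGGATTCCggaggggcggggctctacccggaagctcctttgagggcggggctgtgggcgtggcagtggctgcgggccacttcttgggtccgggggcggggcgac
Tnf: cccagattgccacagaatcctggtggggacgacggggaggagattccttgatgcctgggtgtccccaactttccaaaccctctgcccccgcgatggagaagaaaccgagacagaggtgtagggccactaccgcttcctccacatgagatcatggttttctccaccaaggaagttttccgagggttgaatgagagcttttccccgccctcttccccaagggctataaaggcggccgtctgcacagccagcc
The match before Nfkbia reads GGGAATTTCC on the opposite strand, 29 to 20 bases before the start. The match before Nfkbie reads GGGGGATTCC on the strand of the gene, 106 to 97 bases before the start. No letters match the consensus in the Tnf window, and bases further from the start were not searched. Promoter windows were found for 7 of the 10 genes, and not for Nfkbiz, Nfkb1 and Relb. Of these 7 genes, 4 had a match in at least 1 window (Nfkbia, Nfkbie, Tnfaip3 and Nfkb2), against 8.23% of 27025 genes with windows of the same length. In Tnfaip3 a match read GGGGATTTCC, 12 to 3 bases before the start on the opposite strand, and all 3 Nfkb2 windows, for as many annotated starts, held a match. In the Nfkb2 windows these include GGGGCTTTCC at 11 to 2, GGGACATTCC at 236 to 227 and GGGACTTTCC at 225 to 216 bases before the first, second and last of the starts. Bcl3 and Zfp36, like Tnf, had no match in their windows.

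Nfkbia had 119.6, 116, 136 and 98.9 CPM in photoconverted tumors 1 to 4 and 78.7, 112, 93.7 and 99.8 CPM in control tumors 1 to 4. Photoconverted tumors 1 to 3 were thus above every control tumor, whereas photoconverted tumor 4 lay inside the control range. The means were 118 ± 15.1 CPM and 96.1 ± 13.9 CPM (SD, n = 4 each), a log2 difference of 0.29 with a standard error of 0.14 (adjusted p = 0.999 in edgeR) and a 95% interval from 0.980-fold to 1.53-fold. Nfkbie had 32.3, 33.3, 37.1 and 26.8 CPM in photoconverted tumors and 26.8, 35.2, 35.0 and 22.3 CPM in control tumors. The groups overlapped over most of their range, with control tumors 2 and 3 above photoconverted tumors 1 and 2. For Nfkbie the log2 fold change came to 0.12 (standard error 0.18, adjusted p = 0.999 in edgeR), with an interval from -0.28 to 0.52. It was 0.0036 without control tumor 4 and 0.21 without control tumor 3.

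Nfkbiz and Bcl3 encode atypical IkB proteins that act in the nucleus, where IkB-zeta and BCL3 bind NF-kB subunits on DNA and modulate a subset of target genes. Nfkbiz lies at chr16:55811375-55838899 and Bcl3 at chr7:19808462-19822770, both on the minus strand. Nfkbiz had 50.7, 43.0, 62.7 and 37.3 CPM in photoconverted tumors and 36.3, 42.8, 35.1 and 33.4 CPM in control tumors. Only control tumor 2 reached into the photoconverted range, where it was above photoconverted tumor 4 and just below photoconverted tumor 2. Nfkbiz thus had a log2 fold change of 0.39 (standard error 0.17), with an unadjusted p of 0.0452 and an adjusted p of 0.999 in edgeR. With 1 tumor left out it ran from 0.25, without photoconverted tumor 3 (unadjusted p = 0.146 in edgeR), to 0.50, without photoconverted tumor 4, and the unadjusted p stayed under 0.05 only without photoconverted tumor 4 or control tumor 2. Bcl3 had 20.2, 26.4, 28.1 and 24.5 CPM in photoconverted tumors against 14.9, 25.3, 18.4 and 22.1 CPM in control tumors. Here photoconverted tumor 1 and not tumor 4 was the lowest of its group, and control tumors 2 and 4 were above it. In Bcl3 the log2 fold change came to 0.30 (standard error 0.19, adjusted p = 0.999 in edgeR), and to 0.18 without control tumor 1 and 0.42 without control tumor 2. Both genes were higher in the photoconverted tumor of 4 of 4 same-numbered pairs, as was Zfp36. The pairing by number is uncertain and not a stated design, and the share of all genes at 4 of 4 was not taken. At 3 or more of 4 pairs, 32.3% of all genes were higher. In pair 2 Nfkbiz differed by only 0.0066 on the log2 scale.

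Tnfaip3 encodes a ubiquitin-editing enzyme that shuts down signaling upstream of the IkB kinases, and Zfp36 encodes tristetraprolin, which binds AU-rich elements and hastens the decay of mRNAs such as that of Tnf. Tnfaip3 lies at chr10:19000910-19015657 and Zfp36 at chr7:28376784-28380253, both on the minus strand. Tnfaip3 had 34.2, 31.2 and 42.2 CPM in photoconverted tumors 1 to 3, all above the 22.2, 26.1, 23.8 and 18.8 CPM of the control tumors. Photoconverted tumor 4, with 16.8 CPM, was the lowest of all 8 tumors. The means of 31.1 ± 10.6 and 22.7 ± 3.07 CPM (SD, n = 4 each) gave a log2 fold change of 0.46 (standard error 0.25, adjusted p = 0.999 in edgeR). Leaving out 1 tumor at a time moved it from 0.28, without photoconverted tumor 3, to 0.66, without photoconverted tumor 4 (adjusted p = 0.362 in edgeR). Zfp36 had 53.6, 54.1, 81.6 and 32.6 CPM in photoconverted tumors and 28.9, 38.2, 29.8 and 28.9 CPM in control tumors. Photoconverted tumors 1 to 3 exceeded every control tumor, and photoconverted tumor 4 was above 3 of the 4 control tumors but below control tumor 2. In the authors' normalized counts the means were 1255 ± 453 and 711 ± 99.5 (SD, n = 4 each). From the raw counts Zfp36 had a log2 fold change of 0.82 (standard error 0.25), a 1.77-fold difference with a 95% interval from 1.20 to 2.60, an unadjusted p of 0.00863 and an adjusted p of 0.999 in edgeR. By unadjusted p it ranked 55 among 14468 genes. Leaving out 1 tumor at a time moved its log2 fold change from 0.58, without photoconverted tumor 3, to 1.00, without photoconverted tumor 4, where the adjusted p was 0.174 in edgeR. An annotated antisense transcript, Gm44710, overlaps Zfp36 and was not analysed here, and whether counting used strand is not given in the sources used here. The same holds for Gm16174 and Gm16175 at Bcl3, and for AC114539.1 at Nfkb2. Psd, which also runs against Nfkb2, was counted separately with 103 to 312 counts per tumor.

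Nfkb1, Nfkb2 and Relb encode DNA-binding subunits, the first of the canonical branch and the others of the branch that pairs the processed Nfkb2 product with RelB. Nfkb1 (chr3:135584655-135691547) and Relb (chr7:19606217-19629438) lie on the minus strand and Nfkb2 (chr19:46304320-46312385) on the plus strand. Nfkb1 had 164, 160.5, 167 and 133 CPM in photoconverted tumors against 136, 133, 148 and 143 CPM in control tumors. Photoconverted tumors 1 to 3 were above every control tumor, as for Nfkbia, Nfkbiz, Tnfaip3 and Zfp36, and photoconverted tumor 4 (132.6 CPM) was just below control tumor 2 (132.9 CPM) and so the lowest of all 8. This arrangement, with 3 photoconverted tumors above every control tumor, was found in 5 of the 10 genes and in 5.00% of all genes tested. The difference in Nfkb1 was small, with a log2 fold change of 0.16 (standard error 0.11, adjusted p = 0.999 in edgeR). Nfkb2 had 251, 280.4, 258 and 312 CPM in photoconverted tumors and 206, 377, 239 and 312 CPM in control tumors. Its 3 highest values were those of the 3 tumors with an Rn45s share over 10%, an order found in 1 of the 10 genes and in 23.4% of all genes, and the part of the libraries in it was not tested. Relb had 39.4, 42.9, 43.6 and 43.7 CPM in photoconverted tumors and 35.2, 56.5, 40.6 and 39.1 CPM in control tumors, so that control tumor 2 alone stood above the rest. The log2 fold changes were -0.042 for Nfkb2, with an interval from -0.48 to 0.39, and -0.012 for Relb, with an interval from -0.36 to 0.33. Both were positive without control tumor 2, at 0.13 and 0.15.

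Tnf, the cytokine at the head of the pathway (chr17:35199381-35202007, minus strand), was the least abundant of the 10 genes in CPM and did not share the order seen in Nfkbia or Zfp36. It had 6.53, 4.83, 6.58 and 4.44 CPM in photoconverted tumors and 7.05, 5.57, 6.79 and 3.97 CPM in control tumors. The highest value was in control tumor 1 and the lowest in control tumor 4, and the photoconverted tumors lay between them. The means were 5.60 ± 1.12 and 5.84 ± 1.41 CPM (SD, n = 4 each), with a log2 fold change of -0.066 (standard error 0.24, adjusted p = 0.999 in edgeR). The interval in fold ran from 0.659 to 1.38, so differences within that range were not excluded. This range is not a limit of detection, and the size of Tnf difference that the adjusted test could call was not tested. With 52 counts in the shallowest library, counting error alone was 13.9% of the value there, against 6.51% or less in the other 9 genes. In 3 of 4 same-numbered pairs the control tumor had the higher Tnf value, whereas 8 of the 10 genes were higher in at least 3 of 4 pairs, which holds for 32.3% of all genes.

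**Figure D2:**
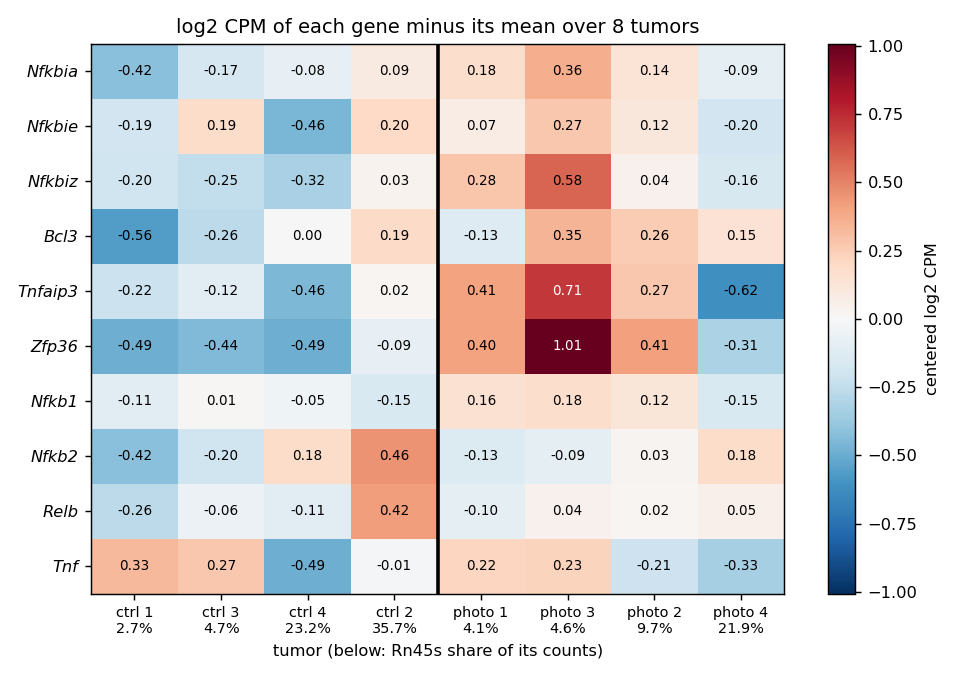
Heat map of log2 CPM (prior count 2) of each gene minus its mean over the 8 tumors, with tumors ordered within each group by their Rn45s share, which is printed below each column. Zfp36, Tnfaip3 and Nfkbiz in photoconverted tumor 3 are the most positive cells (1.01, 0.71 and 0.58), and Nfkb2 and Relb are most positive in control tumor 2 (0.46 and 0.42).

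Averaged over the 10 genes, centered log2 CPM was 0.13, 0.12 and 0.36 in photoconverted tumors 1 to 3 and -0.15 in photoconverted tumor 4. In control tumors 1 to 4 it was -0.26, 0.12, -0.10 and -0.23. Control tumor 2 was therefore close to photoconverted tumors 1 and 2, and photoconverted tumor 4 was within the range of the other 3 control tumors. The lowest photoconverted value was in tumor 4 for 7 of the 10 genes, against 40.6% of all genes tested. Summed markers of neutrophils were 112, 127, 164 and 54.5 CPM in photoconverted tumors and 69.9, 48.9, 58.5 and 43.5 CPM in control tumors. Of the 9 neutrophil markers tested, 8 had an unadjusted p under 0.05 toward photoconverted tumors, against 1.65% of all genes, and 0 an adjusted one in edgeR, and none was at 0 in any tumor. Photoconverted tumor 4 was the lowest of its group in this sum too. Summed skeletal muscle markers ranged from 159 to 1346 CPM after photoconversion and from 159 to 387 CPM in controls, and were highest in photoconverted tumor 3. Summed macrophage markers overlapped widely, with 619 to 1299 CPM and 482 to 1118 CPM. The part of these cells in the values of the 10 genes was not tested.

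The 5 tumors in which Rn45s took under 10% of counts were 3 photoconverted and 2 control tumors, and among them 7 of the 10 genes were higher without overlap and Tnf was lower without overlap. This compares with 28.5% of all genes in either direction. In the edgeR fit of these 5 tumors 0 of the 10 genes were called, against 0.275% of all genes, and 5 of the 10 had an unadjusted p under 0.05, against 10.5%. All 5 were higher in photoconverted tumors, a direction in which 6.31% of all genes had such a p. When photoconverted tumor 4 alone was left out, 5 of the 10 did not overlap, against 6.74% of all genes. These were the 5 genes in which photoconverted tumors 1 to 3 already stood above every control tumor. The count therefore repeats that result and is no second one. In the edgeR fit without photoconverted tumor 4, 0 of the 10 were called, against 0.0745%, and 4 had an unadjusted p under 0.05, against 5.26%. With the 5 tumors under 10%, Zfp36 had a log2 fold change of 1.10 (standard error 0.20, adjusted p = 0.0956 in edgeR), followed by Tnfaip3 with 0.64, Bcl3 with 0.58, Nfkbiz with 0.54 and Nfkbia with 0.52. In the same fit the log2 fold change of Nfkb2 was 0.24 and that of Relb 0.15, both opposite in sign to the fit of 8 tumors, and that of Tnf was -0.21.

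**Figure D3:**
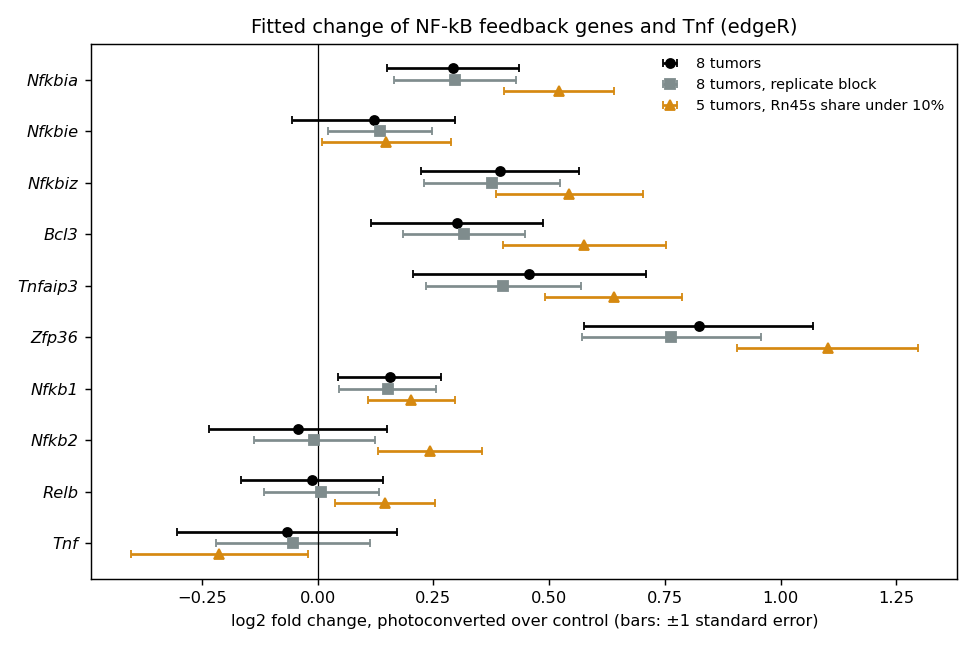
Log2 fold change, photoconverted over control, of each gene (points) with ±1 standard error (bars) from edgeR with 8 tumors (black), with the replicate block (grey) and with the 5 tumors under a 10% Rn45s share (orange). Zfp36 is the largest in all 3 fits (0.82, 0.76 and 1.10), and Nfkb2 and Relb lie near 0 in both fits of 8 tumors.

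To compare levels between genes of unlike length, CPM were taken per kb of annotated exon, with Rela and Rel, the other Rel family subunits, added for reference. In control tumors Nfkb2 (61.8 ± 16.7 CPM per kb) and Nfkbia (59.7 ± 8.60) were the highest and did not differ beyond their spread, followed without overlap by Rela (25.4 ± 5.05) and then Nfkb1 (11.6 ± 0.572; SD, n = 4 each). Relb, Nfkbie, Zfp36, Bcl3 and Nfkbiz followed, each overlapping its neighbor in that order, down to 7.36 ± 0.820 CPM per kb for Nfkbiz (SD, n = 4). Tnf (3.57 ± 0.859) and Tnfaip3 (3.15 ± 0.425) overlapped as well, and Rel (1.63 ± 0.175) was the lowest. In photoconverted tumors Zfp36 had 15.4, 15.6, 23.5 and 9.39 CPM per kb of annotated exon. By this length, 3 of those tumors were above the level of Nfkb1 in any of them. With the longest coding transcript as the length, Nfkb1 moved above Rela and Tnfaip3 above Tnf, so the rank of these pairs rests on the gene model. The order of Zfp36 and Nfkb1 does too, since Nfkb1 has 12061 bases of annotated exon but 4117 in its longest coding transcript. For Zfp36 these lengths were 3470 and 2790 bases.

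**Figure D4:**
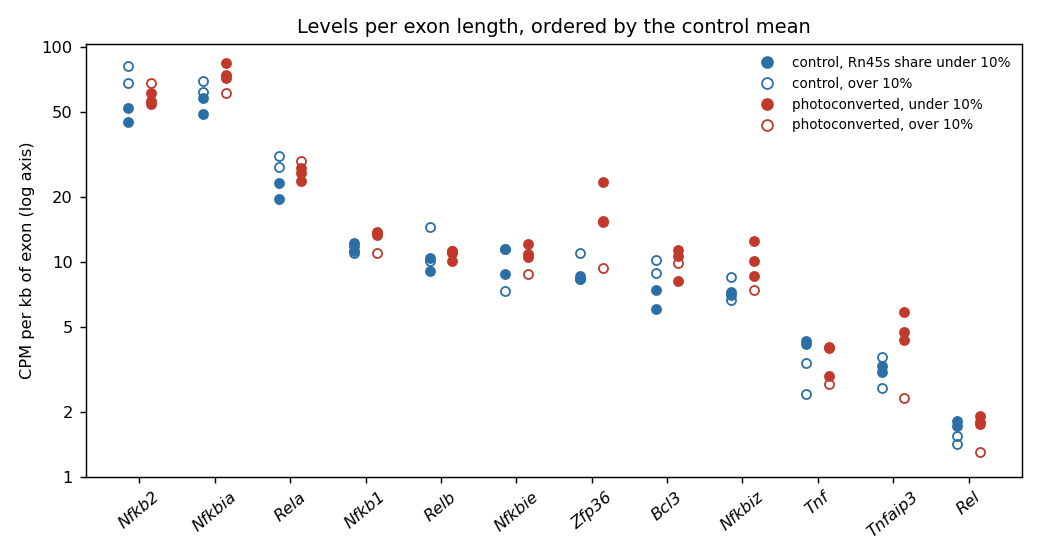
CPM per kb of exon (log axis) of the 10 genes with Rela and Rel in control (blue) and photoconverted (red) tumors, ordered by the control mean, with open circles for tumors with an Rn45s share over 10%. In control tumors Nfkb2 and Nfkbia share the top with control means of 61.8 and 59.7 CPM per kb, and Rel is the lowest with 1.42 to 1.81 CPM per kb in control tumors.

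Other genes of the pathway were taken from lists by role that hold 68 genes, of which 65 were tested (not Lta, Ccl20 and Csf2) and 0 had an adjusted p under 0.05 in edgeR. An unadjusted p under 0.05 was found for 14 of the 65, all 14 toward higher values in photoconverted tumors. Over all genes 1.65% had such a p in that direction. Of the 14, 11 came from the list named secreted and surface targets. That list also holds Ptgs2 and Sod2, which encode intracellular enzymes. None of the 65 had such a p toward lower values, as 0.574% of all genes did. Subunits and inhibitors outside the 10 had log2 fold changes of 0.07 for Rela, 0.06 for Rel and 0.23 for Nfkbid. The 14 receptors and adaptors had a median of 0.05 and a range from -0.45 for Tradd to 0.29 for Traf1. The 10 kinases had a median of -0.014, with -0.19 for Ikbkg, the regulatory subunit of the IkB kinase, at the lower end. In none of these 3 lists did a gene have an unadjusted p under 0.05. Of 11 other feedback genes 2 did, Socs3, an inhibitor of cytokine receptor signaling, with a log2 fold change of 0.84 (unadjusted p = 0.00754 in edgeR) and Dusp1, a MAP kinase phosphatase, with 0.87 (unadjusted p = 0.0359 in edgeR). Among 9 tested genes of the TNF superfamily and its processing, Tnfsf14, a TNF family ligand, alone had an unadjusted p under 0.05 (0.0292 in edgeR), with 3.30, 3.09, 4.22 and 0.752 CPM in the photoconverted tumors, against a control mean of 1.25 ± 0.360 CPM (SD, n = 4). As in Zfp36, photoconverted tumor 4 was the lowest of its group. The 17 tested genes of the list of secreted and surface targets had a median log2 fold change of 1.10. This was the largest of the 6 lists, and 16 genes were above 0. Il6 (2.73), Cxcl10 (0.68) and Ccl4 (1.10), which encode a cytokine and chemokines, had the smallest p among them, and the groups did not overlap for Cxcl10, Ccl4 and Sod2, 3 of 17 where 0.684% of all genes were higher without overlap. In the 5 tumors under 10% the test called 2 genes of these lists, Il6 with 2.78 (adjusted p = 0.0195 in edgeR) and Cxcl3 with 2.98 (adjusted p = 0.0229 in edgeR), and without photoconverted tumor 4 it called Il6 with 3.09 (adjusted p = 0.0390 in edgeR). Both genes were low, with Il6 at 5.05, 4.83, 7.76 and 0.342 CPM in photoconverted tumors and 0.214 to 0.885 CPM in controls. Cxcl3 had 4.25, 2.62, 3.98 and 0.205 CPM in photoconverted tumors and 0.391 to 0.977 CPM in controls. Sod2 and Cxcl3 were named after their values were seen.

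**Figure D5:**
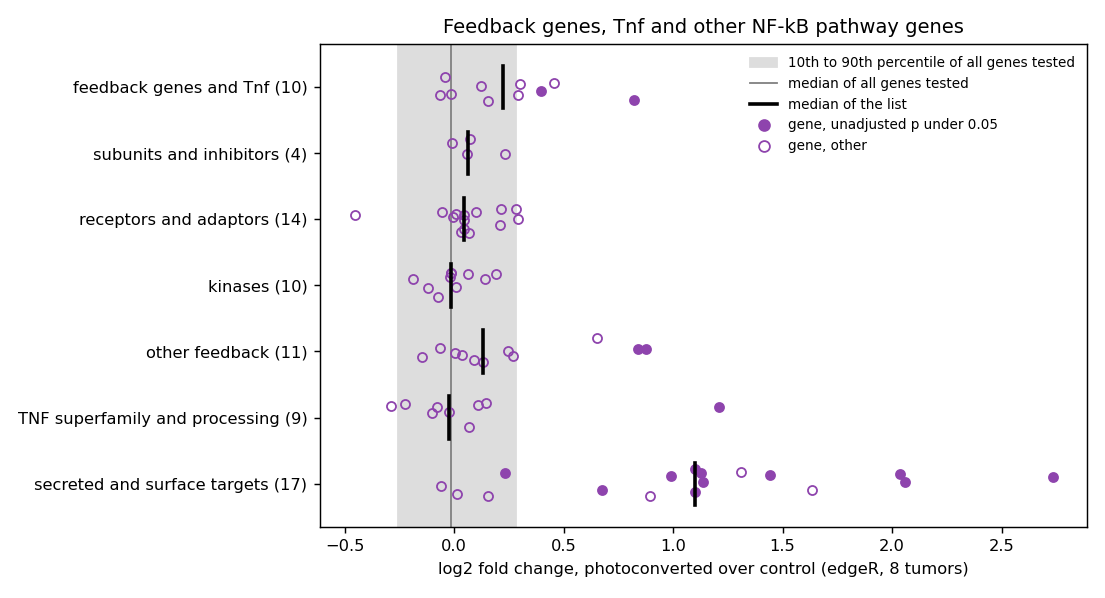
Log2 fold change (edgeR, 8 tumors) of each gene (circles, filled where the unadjusted p is under 0.05) by list, with the list median (black), the median of all genes tested (grey line) and their 10th to 90th percentile (grey band, -0.26 to 0.28). The list of secreted and surface targets, which also holds Ptgs2 and Sod2, has a median of 1.10. The kinases center on -0.014 and the 10 feedback genes and Tnf on 0.22.

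The tested genes whose log2 CPM over the 8 tumors was most similar to the mean of the 10 were 2010111I01Rik (Pearson r = 0.97, Spearman rho = 0.90), Nlrc5 (r = 0.97, rho = 0.90) and Lrrc32 (r = 0.97, rho = 0.90). Those most similar to Tnf were Gng2 (r = 0.99, rho = 0.93), Tox (r = 0.97, rho = 0.98) and Dock1 (r = 0.97, rho = 1.00). They were picked as the extremes over all tested genes, and the 8 points share library depth and Rn45s share, and Tox rests on as few as 2 counts in a tumor, so the coefficients are descriptions only. Nlrc5, a regulator of MHC class I genes, averaged 184 ± 41.1 CPM after photoconversion and 153 ± 25.1 CPM in controls (SD, n = 4 each).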

How the data were processed

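Bulk RNA-seq was analysed for 8 MC38 tumors, 4 photoconverted and 4 control, grouped and numbered by their labels, with 1 mouse per tumor. The authors deposited raw counts per gene, which the submitters' processing notes tie to CASAVA, FastQC, Trim Galore, HISAT2, featureCounts and mm10 without versions, and a second deposited table of normalized signal values. The latter equal the raw counts divided by DESeq2 size factors, and leave out genes with a total of 1 count or fewer. The annotation and strand setting of counting are not given in the sources used here. Counts were fitted with edgeR 4.0.16 (TMM, filterByExpr, quasi-likelihood F test, all 8 tumors, no block, R 4.3.3), and p-values were adjusted by Benjamini-Hochberg over 14468 genes with a threshold of 0.05. Total counts were 12576615 to 35844417 per tumor, and p-values measure the spread between these tumors only.

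Alternatives were DESeq2 1.42.0, limma 3.58.1 on log2 normalized values plus 1, DESeq2 size factors, no filter, a CPM of 1 in 4 tumors, robust dispersion, Rn45s left out or as a covariate, the 5 tumors under a 10% Rn45s share, each tumor left out, and the replicate number as a block. The labels give both groups the numbers 1 to 4. The deviations of same-numbered tumors from their group means correlated in 4 of 4 pairs above 0.1 (0.11 to 0.62). The numbers were therefore treated as pairing in the block fit, from these data and not from a stated design. Some tumors of unlike number correlated as strongly, with 0.48 for photoconverted 3 and control 1 and 0.46 for photoconverted 1 and control 3. Those 4 tumors all had an Rn45s share under 10%. Photoconverted 4 and control 2, both over 10%, had 0.35, whereas photoconverted 4 and control 1, on either side of it, had -0.59. Photoconverted 2 reached at most 0.11 with any control tumor. The part of the Rn45s share in these correlations was not tested. Only 5 of the 8 tumors had their highest correlation with the tumor of their own number, so the pairing is uncertain. On simulated counts for this comparison edgeR recovered 185 of 200 genes changed 4-fold among 14468, with 10 false calls. Smaller changes, such as those of the 10 genes, were not simulated. Each simulated gene was drawn independently, so variation shared between genes, such as any with the Rn45s share, was absent. The recovery may therefore be higher than in the real tumors. No 2 libraries of a group agreed within sampling noise.

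The 10 genes and all lists were chosen with earlier results of these data known. Besides the 10, genes were named by rule: up to 3 with the smallest p in each pathway list, Rela and Rel, the 3 most similar (Pearson, log2 CPM with a prior count of 2) to the mean of the 10 and to Tnf, and Rn45s. Marker lists are given by their sums. Summed markers of T cells were 18.6 to 41.6 CPM in photoconverted and 10.7 to 38.4 CPM in control tumors, those of fibroblasts 3400 to 4649 and 3195 to 12399 CPM, and those of keratinocytes 1.85 to 25.4 and 2.44 to 4.94 CPM. Those of B cells were 4.93 to 7.05 and 4.50 to 6.53 CPM, and those of endothelial cells 133 to 202 and 127 to 176 CPM. Promoter windows were the 250 bases before each RefSeq start (GRCm38.p6).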

Additional observations from a re-analysis of the deposited data

Results flagged for a closer look

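Zfp36 in control tumor 2 was 38.2 CPM and stood apart from the other 3 control tumors, the nearest of which had 29.8 CPM, so that the gap was 0.898 of the range of the group, above the critical value of Dixon's test for 4 values. It was the 1 value that stood apart among 20 groups of 4 tumors examined, and chance gives about 1 in 20. Control tumor 2 had 35.7% of its counts in Rn45s and the highest summed fibroblast markers, 12399 CPM against 3195 to 4649 CPM in the other 7 tumors, and the part of either in this value was not tested. Control tumor 2 was also the only control tumor above photoconverted tumor 4 in Zfp36 and in Nfkbiz. Leaving it out therefore had to separate the groups in these 2 of the 10 genes, against 2.98% of all genes. The separation follows from the values already given and adds no support.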

How the results depend on the processing

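The test called 0 of the 10 genes under every alternative run, the lowest adjusted p being 0.0956 for Zfp36 in the 5 tumors where Rn45s took under 10% of counts. The median log2 fold change of the 10 ranged from 0.16 without control tumor 1 to 0.38 in those 5 tumors. Calls over all genes were 0 in edgeR with 8 tumors, 24 with DESeq2, 42 in the 5 tumors and 0 to 11 when 1 tumor was left out, the 11 without photoconverted tumor 4. Genes of the 10 without overlap were 0 of 10, 8 in the 5 tumors and 0 to 5 when 1 tumor was left out, with 5 without photoconverted tumor 4 and 2 without control tumor 2. Listed pathway genes called were 0, 2 in the 5 tumors and 0 to 1 when 1 tumor was left out. The log2 fold change of Relb turned positive with limma (0.0087), with the Rn45s share as a covariate (0.039) and in the 5 tumors (0.15), and that of Nfkb2 with the covariate (0.059) and in the 5 tumors (0.24). With 1 tumor left out they ran from -0.097 to 0.15 for Relb, -0.17 to 0.13 for Nfkb2 and -0.21 to 0.040 for Tnf, and the cause was not tested. With the replicate block, which pairs tumors by number, 0 genes were called, Relb turned to 0.0084 and no call changed. Overlap has no separate value under robust dispersion, the block or the covariate. Depth limited Tnf most, with 52 to 261 counts.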

Other observations

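The amount of Zfp36 mRNA relative to its known target Tnf was examined after the values of both were seen, and is given without a test. The ratio of Zfp36 to Tnf in CPM in tumors 1 to 4 was 8.21, 11.2, 12.4 and 7.34 after photoconversion. Among controls, in the same order, it was 4.10, 6.87, 4.39 and 7.28. Photoconverted tumor 4 and control tumor 4 could not be told apart, since each ratio rests on 65 counts of Tnf. The means were 9.78 ± 2.40 and 5.66 ± 1.64 (SD, n = 4 each).

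The ratio of Nfkb2 to Nfkb1, the precursors of both branches, was 1.53, 1.75, 1.55 and 2.35 after photoconversion, and 1.51, 2.84, 1.61 and 2.19 among controls. Its 3 highest values were those of the 3 tumors with an Rn45s share over 10%, in both groups. The part of these libraries in the ratio was not tested.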
